A study of Homo sapiens with 18 samples.

Results

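The genes described here encode the proteins of the cytosolic ribosome. They were chosen by symbol, as genes named RPL, RPS or RPLP followed by a number and, in some, an A or X, and were kept if 3 or more libraries of a table reached a value of 10. Of 28395 genes in each RNA-seq table, 76 had such a symbol, and all 76 passed the minimum. They comprise 46 genes of the large (60S) subunit and 30 of the small (40S) subunit. The data come from 3 stably transfected derivatives of K562, a human chronic myelogenous leukemia cell line: V-K562, the control line; B-K562, which expresses wild-type BASP1 (wtBASP1), a transcriptional corepressor; and G-K562, which expresses BASP1-G2A, a mutant that is not myristoylated at its N-terminus. Each line is a pool of transfected cells selected together and kept in the drug G-418, so a line stands for 1 selection and not for independent clones. RNA-seq and ATAC-seq, an assay of open chromatin, were each made from 3 cultures of each line, 9 libraries per assay. The p-values therefore measure the spread between cultures of a line.

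The ribosome is built from ribosomal RNA and a set of proteins that are needed in nearly equal numbers, and dividing cells spend a large part of their mRNA on these proteins. The mRNAs of ribosomal proteins and of several translation factors typically begin with a C followed by a run of pyrimidines, the 5′ terminal oligopyrimidine (TOP) tract, through which the kinase mTOR and the RNA-binding protein LARP1 control their translation and stability. Their promoters are often without a TATA box, and most of the genes have many processed pseudogenes. In erythroid cells the supply of ribosomal proteins is of particular interest, since mutations in some of these genes cause Diamond-Blackfan anaemia, a failure of red cell production.

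The start sites of the genes whose RNA differed most are shown first, because the TOP tract is the sequence feature that these mRNAs share. RefSeq start sites (GRCh38.p14) were available for 61 of the 76 genes. Each line below gives 30 bases in the direction of transcription, 15 before the annotated start and 15 from it on, and capitals mark the unbroken run of C and T that begins at the first transcribed base where that base is C. The genes shown are those with a single annotated start among the 5 genes that rose most and the 5 that fell most against V-K562 in each line. Higher in B-K562 were RPS26, RPL36A and RPS15.
RPS26 (chr12:56041903-56041932, plus strand): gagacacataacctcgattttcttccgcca
RPL36A (chrX:101390996-101391025, plus strand): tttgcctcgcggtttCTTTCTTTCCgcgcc
RPS15 (chr19:1438381-1438410, plus strand): tgcgcaggcgcggacCaaagcgatctcttc
Among the 5 largest falls in B-K562 were RPL3, RPL12, RPS18 and RPL29.
RPL3 (chr22:39319609-39319638, minus strand): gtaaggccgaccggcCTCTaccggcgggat
RPL12 (chr9:127451392-127451421, minus strand): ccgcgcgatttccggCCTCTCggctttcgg
RPS18 (chr6:33272060-33272089, plus strand): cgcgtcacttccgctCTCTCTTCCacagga
RPL29 (chr3:51995881-51995910, minus strand): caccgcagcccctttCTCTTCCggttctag
Higher in G-K562 were RPS25, RPS27, RPS4X and RPL26.
RPS25 (chr11:119018329-119018358, minus strand): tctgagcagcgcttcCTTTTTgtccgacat
RPS27 (chr1:153990747-153990776, plus strand): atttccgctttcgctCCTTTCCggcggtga
RPS4X (chrX:72277234-72277263, minus strand): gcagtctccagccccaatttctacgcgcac
RPL26 (chr17:8383179-8383208, minus strand): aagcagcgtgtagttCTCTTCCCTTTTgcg
Lower in G-K562, besides RPS26, were RPS3A, RPL22 and RPL17.
RPS3A (chr4:151099613-151099642, plus strand): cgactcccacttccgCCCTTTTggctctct
RPL22 (chr1:6199581-6199610, minus strand): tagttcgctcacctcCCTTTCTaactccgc
RPL17 (chr18:49492451-49492480, minus strand): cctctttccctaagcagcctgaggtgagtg
The tract is thus present at the start of RPL36A, which was higher in B-K562, as well as at that of RPL12, which was lower, and it is missing at the annotated starts of RPS26, RPS4X and RPL17. At RPL3 the run is 4 bases long, and at RPS15 it is the first C alone.

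A tract of at least 5 bases (a C at the first transcribed base, followed by C or T only) was found at an annotated start of 45 of the 61 genes (73.8%), against 5.14% of the 27305 genes in the start-site table. It was found in 42 of the 52 matched genes that were lower in B-K562 and in 1 of the 4 that were higher, RPL36A. Of the matched genes that were higher in G-K562, 14 of 18 had it, and of those that were lower 7 of 9. Annotated starts are approximate, and such a run started within 10 bases of the start in 56 of the 61 genes and in 38.4% of all genes. Counted in this wider way, it was found in 49 of the 52 genes lower in B-K562 and in 3 of the 4 that were higher. For RPL6, 1 of these 4 genes and without a run in either count, the starts used (112411442 and 112409285) lie inside the gene. Its outermost start on the minus strand is 112418838, so its promoter was not examined. RPS29, among the 52, was also scored at a start (49598710) other than that used for ATAC-seq (49586416). The difference between these groups thus depends on the exact annotated start and on 4 genes. In the window from 250 bases before the start to 50 after it, on either strand, CCGGAAG, the core of ETS-family sites, occurred in 22 of the 61 genes (36.1%, against 12.2% of all genes), GGGCGG, the GC box, in 57.4% (48.3%), TATAAA in 8.2% (14.0%) and CACGTG, the E-box, in 6.56% (8.77%). These matches describe letters only, and the table of all genes includes noncoding genes.

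All values below are read counts that the authors divided by a size factor for each library and rounded, so they are relative to the other RNA of the same library, and their totals, between 32074895 and 33229588 per library, do not show depth. The BASP1 transgene followed the labels: the 3 V-K562 libraries had 5 to 7, those of B-K562 had 6189 to 6849, and those of G-K562 had 8124 to 12538. The 8 markers of erythroid cells and K562 reported here (GATA1, TAL1, KLF1, HBG1, HBG2, HBE1, HBZ and TFRC) were expressed. They moved with the lines, and their summed value was 122870 to 139089 for V-K562 and 212760 to 216628 for B-K562 in 1 table, and 125365 to 141220 for V-K562 and 68400 to 74054 for G-K562 in the other. All 8 were higher in B-K562, and 7 were lower in G-K562, where TFRC was higher. The part of this shift in the results on ribosomal proteins was not tested. The 4 markers of other blood cells reported here (CD3E, MS4A1, CD14 and ELANE) summed to at most 50 in any library, MS4A1 was at 0 in every library, and ELANE was at 0 in B-K562.

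Ribosomal protein mRNAs were among the most abundant in K562 cells. Per kb of exon, the median of the 76 genes in V-K562 was 32890, against 189.3 over all genes tested, and 64 of the 76 were in the top 1% of genes. The highest per kb were RPS18, a protein of the 40S head, at 177800, RPS12 at 111900, and RPLP1, a protein of the P-stalk where translation factors dock, at 100100. The lowest were RPL36A at 193.5, RPL17, which lines the peptide tunnel, at 1362, and RPS26, which contacts mRNA at the exit of the 40S channel, at 2390. The span of this level between genes whose products are used in nearly equal numbers is therefore wide. The length used is that of all annotated exons of a gene merged, 542 bases for RPS18, 2911 for RPL36A and 6319 for RPL28. Its part in the span was not tested. Only uniquely mapping reads had been counted, and GENCODE lists 52 pseudogenes of any type named after RPL36A, 49 after RPL17 and 36 after RPS26. Over the 76 genes, the level per kb had a Spearman correlation of -0.27 with the number of pseudogenes and of -0.46 with exon length, given as a description of genes that share the same libraries. The level per kb is itself a value divided by exon length, so a negative correlation with that length is partly built in. Overlapping annotation also makes the level of some genes uncertain. RPS10 shares 62.5% of its exon bases with the RPS10-NUDT3 readthrough gene, RPL17 shares 54.0% with RPL17-C18orf32, RPL36A shares 15.6% with RPL36A-HNRNPH2, and RPL10 overlaps DNASE1L1 on the opposite strand over 42.7%.

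The libraries of a line differed in their ribosomal protein mRNAs together. V-K562 replicate 1 held the highest value of its line for 61 of the 76 genes, B-K562 replicate 1 for 71, and G-K562 replicate 2 for 69. The median of the 76 genes relative to the V-K562 mean, on the log2 scale, was 0.06, -0.03 and -0.03 in the V-K562 libraries, -0.23, -0.30 and -0.33 in B-K562, and 0.03, 0.16 and 0.00 in G-K562. B-K562 lay below the other lines in every library, whereas the ranges of G-K562 and V-K562 overlapped. As a share of all values in a library, the 76 genes made up 8.29%, 7.67% and 7.69% in V-K562, 6.48%, 6.22% and 6.05% in B-K562, and 8.13%, 9.07% and 8.20% in G-K562. The 76 genes are thus not 76 independent measurements, and counts of them are given below also without these libraries where they move.

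**Figure D1:**
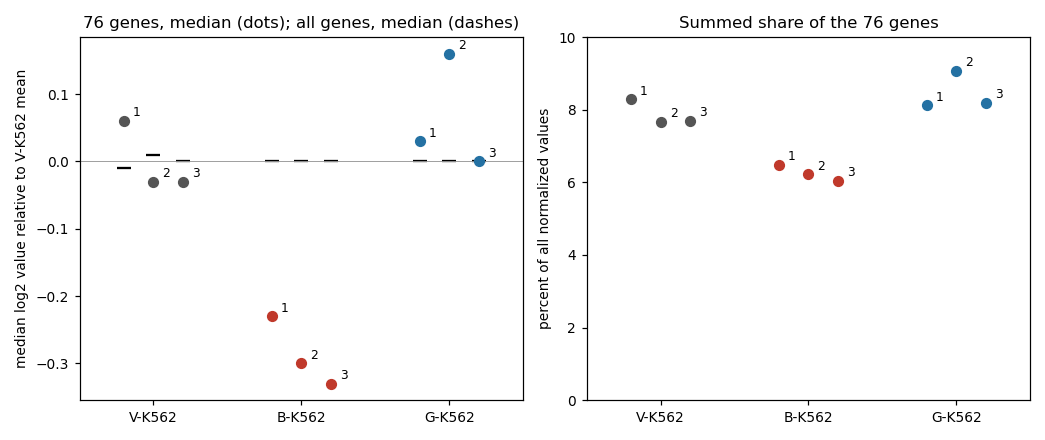
Left, the median log2 value of the 76 ribosomal protein genes relative to the V-K562 mean (dots) and the same median over all genes (dashes) in each of the 9 RNA-seq libraries, with replicate numbers. Right, the summed share of the 76 genes in each library, in percent of all normalized values, which was 6.05% to 6.48% in B-K562 and at least 7.67% in the other lines.

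The first comparison asks how these mRNAs differed between the line with wtBASP1 and the control line. Most ribosomal protein mRNAs fell in B-K562 cells by a small amount. Of the 76 genes, 65 were lower than in V-K562 (limma, adjusted p at most 0.05), where 37.2% of the 14958 genes tested were lower, and 5 were higher, where 38.6% of all genes were. The median log2 difference of the 76 genes was -0.29 (-0.42 at the lower quartile and -0.18 at the upper), against 0.01 over all genes. For 64 of the genes every B-K562 library was below every V-K562 library, which held for 38.1% of all genes. No called fall reached 2-fold, where 14.1% of all genes had one, and 1 called rise did, where 6.46% of all genes had one. In bulk RNA, less RNA of a gene per cell and fewer cells with that RNA cannot be told apart. Without V-K562 replicate 1 the median was -0.25 and 60 genes were lower, and without B-K562 replicate 1 it was -0.32 with 64 lower.

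The largest fall was that of RPL3, a protein close to the peptidyl transferase center. Its value was 90538, 90828 and 89691 in V-K562 and 58735, 58062 and 56902 in B-K562, a log2 difference of -0.64 ± 0.05 (SE, n = 3 per line, limma adjusted p = 8e-08). The groups lay far apart and the cultures of each line were close together. RPL12, which forms the base of the P-stalk, had 33960, 30994 and 31483 in V-K562 and 22498, 20464 and 19848 in B-K562 (-0.62 ± 0.06, limma adjusted p = 3.6e-07). RPL7 fell from a mean of 29360 ± 726.5 (SD, n = 3) to 19810 ± 758.9 (-0.57). RPS18 fell from 102249, 94919 and 91993 to 68284, 65055 and 63090, a difference of -0.56 on the log2 scale. RPL29 fell from 15364, 15420 and 15590 to 11119, 10501 and 10184 (-0.54). In all 5 genes the lowest V-K562 library was above the highest B-K562 library.

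RPS26 moved the other way and further than any other member. Its value was 1713, 1613 and 1564 in V-K562 and 3884, 3675 and 3539 in B-K562, a rise of 2.27-fold (log2 difference 1.18 ± 0.05, limma adjusted p = 3.3e-10). The libraries of B-K562 were each more than 2-fold above those of V-K562. RPL36A, a 60S protein near the tRNA exit site, was 544, 587 and 559 in V-K562 and 799, 929 and 931 in B-K562 (0.65 ± 0.07), again without overlap. RPL37, a 60S protein bound within the ribosomal RNA, was 48790, 40056 and 40109 in V-K562 and 63875, 60006 and 58637 in B-K562 (0.51 ± 0.07). RPL6 (0.22 ± 0.06) and RPS15, a protein of the 40S head near the decoding site (0.18 ± 0.06), rose by less. RPS15 overlapped between the lines, with 10237 in V-K562 replicate 1 and 10213 in B-K562 replicate 2, and its rise was not called without V-K562 replicate 2 (limma adjusted p = 0.079), without B-K562 replicate 1 (0.084) or with cyclic loess scaling (0.28). The genes that rose thus included RPL36A, which had the lowest level per kb of the family, and also the abundant RPL37.

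**Figure D2:**
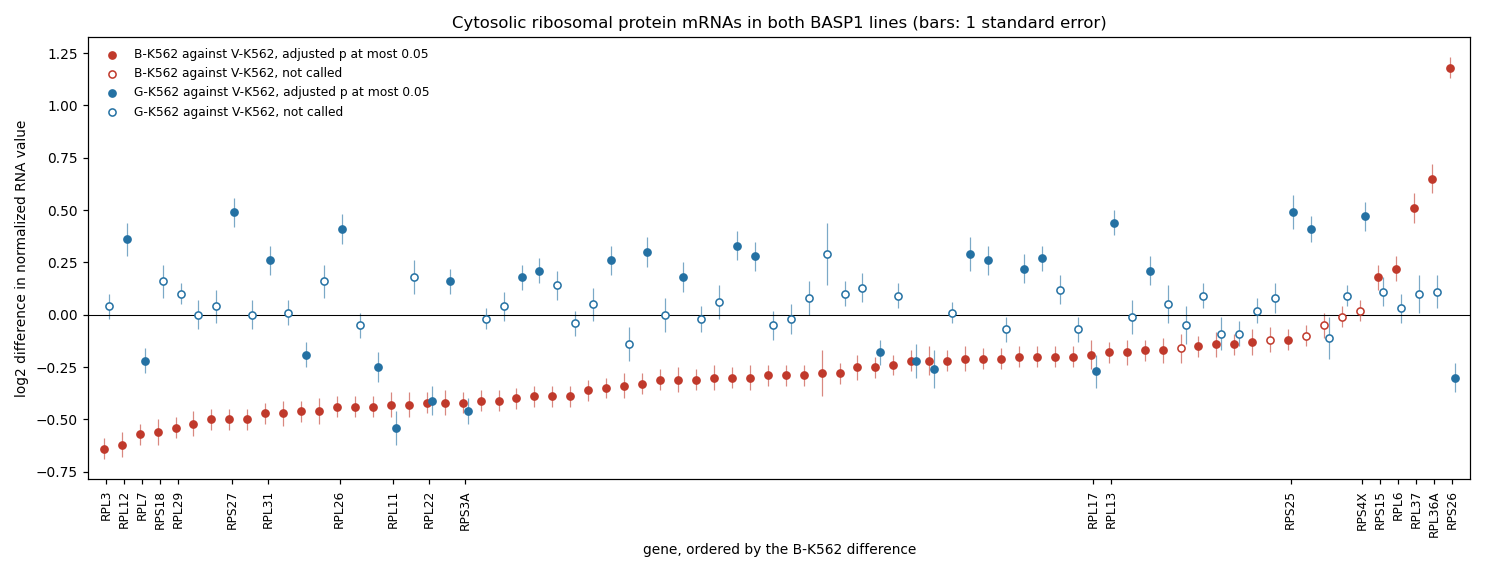
Log2 difference in normalized RNA value from V-K562 for each of the 76 genes, in B-K562 (red) and G-K562 (blue), ordered by the B-K562 difference, with the genes of the largest called differences labelled. Bars are 1 standard error (n = 3 per line) and filled points have an adjusted p of at most 0.05; 65 red points are called below 0 and RPS26 stands at 1.18.

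The 6 genes that were not called in B-K562 were RPL8, RPL10, RPS4X, RPS7, RPS10 and RPS28, with log2 differences from -0.16 for RPS28 (limma adjusted p = 0.05) to 0.02 for RPS4X. RPS25, with -0.12, passed the threshold by a similar margin. Both subunits fell. Of the 46 genes of the 60S subunit, 41 were lower (89.1%) and 3 higher (6.52%), with a median of -0.31. For the 30 genes of the 40S subunit the counts were 24 lower (80%) and 2 higher (6.67%), with a median of -0.22. Among all genes tested 37.2% were lower and 38.6% higher, and among the 76 members 85.5% were lower. The counts by role below are parts of that common fall and are given as a description. Grouped by the place of the protein in the ribosome, all 4 P-stalk genes (RPLP0, RPLP1, RPLP2 and RPL12) were lower, with RPLP0, the scaffold of the stalk, at -0.39 and RPLP2 at -0.18. All 9 genes at the exit of the peptide tunnel were lower (median -0.30), among them RPL31 (-0.47), RPL26 (-0.44) and RPL4 (-0.42). Of the 9 genes along the mRNA channel of the 40S subunit, 6 were lower (66.7%) and 2 higher (22.2%). RPS3, at the channel entry, fell by 0.50 on the log2 scale, whereas RPS26, at the exit, rose. RPL5 (-0.28) and RPL11 (-0.43), which form the 5S ribosomal RNA particle that binds MDM2, were both lower. RPS6, the substrate of S6 kinase, fell by 0.40, and RPS27A, made as a fusion with ubiquitin, fell by 0.20. Of 19 genes mutated in Diamond-Blackfan anaemia, 15 were lower (78.9%, below the 85.5% of all members) and RPS26 was higher.

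The genes lie on 21 chromosomes, and K562 is aneuploid. On 20 of the 21 chromosomes the median of the ribosomal protein genes in B-K562 was below the median of all genes tested on the same chromosome, the exception being chromosome 12, where RPS26 and RPL6 lie. Over the 76 genes the size of the difference had a Spearman correlation of -0.28 with the mean value and of -0.07 with exon length, given as a description.

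The second comparison asks how the same mRNAs differed between the control line and the line with BASP1-G2A, which lacks the lipid. No common fall was seen in G-K562 cells. Of the 76 genes, 21 were higher than in V-K562, where 33.5% of the 15271 genes tested were higher, and 11 were lower, where 33.3% were. The share of members lower (14.5%) was thus below the background, and the share higher (27.6%) was near it. The median log2 difference of the 76 genes was 0.07, with a range from -0.54 to 0.49, against a median of 0.00 over all genes. No member had a called 2-fold change in either direction, where 8.81% of all genes had a rise and 10.3% a fall of that size (at an unadjusted p under 0.05 and any size, limma gave 22 higher and 11 lower members). Centring the values within bins of gene length, tried since these genes are short, moved this result: 41 genes were then higher and 5 lower, with a median of 0.16. Without G-K562 replicate 2, the library in which these genes were highest, 17 were higher and 14 lower with a median of 0.02, and without G-K562 replicate 1 there were 20 higher and 7 lower.

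RPS25, which binds near the tRNA exit site of the 40S subunit, was 19452, 18357 and 17805 in V-K562 and 23549, 30145 and 25029 in G-K562 (log2 difference 0.49 ± 0.08, limma adjusted p = 0.00031). RPS27, a zinc-binding 40S protein, was 22350, 21001 and 21607 in V-K562 and 28937, 33451 and 29188 in G-K562 (0.49 ± 0.07). RPS4X, encoded on the X chromosome, rose from 36264, 35042 and 33805 to 46247, 52112 and 47240, a log2 difference of 0.47 ± 0.07. In these 3 genes the groups did not overlap, and replicate 2 was the highest G-K562 library. RPL13 (0.44 ± 0.06) and RPL26 (0.41 ± 0.07), a protein of the tunnel exit, completed the 5 largest rises.

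The largest fall in G-K562 was in RPL11, which had 64031, 58308 and 57545 in V-K562 and 38390, 46794 and 39288 in G-K562 (-0.54 ± 0.08, limma adjusted p = 0.00014). RPL5, its partner in the 5S particle, had a difference of 0.10 ± 0.06 and was not called. RPS3A, at the exit of the mRNA channel, was 17555, 18586 and 17434 in V-K562 and 12479, 13644 and 12703 in G-K562 (-0.46 ± 0.06). RPL22, an RNA-binding protein of the 60S subunit, was lower by a similar amount (-0.41 ± 0.07). RPS26 was 1739, 1638 and 1596 in V-K562 and 1430, 1305 and 1310 in G-K562 (-0.30 ± 0.07), without overlap. This fall of RPS26 was not called with centring within length bins (-0.08, limma adjusted p = 0.32). RPL17 was lower by -0.27 ± 0.08, a call that was lost without V-K562 replicate 2 (limma adjusted p = 0.061) or G-K562 replicate 1 (0.059).

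By role, the shares called in G-K562 were mostly near or below those of all genes (33.5% higher and 33.3% lower), and the counts are given as a description. Of the 60S genes 14 were higher (30.4%) and 6 lower (13%), with a median of 0.08, and of the 40S genes 7 were higher (23.3%) and 5 lower (16.7%), with a median of 0.04. In the P-stalk RPL12 rose by 0.36 and the other 3 genes were not called. At the tunnel exit 4 genes were higher (RPL4, RPL26, RPL31 and RPL39) and 2 lower (RPL17 and RPL22). Of the 19 Diamond-Blackfan anaemia genes 5 were higher (26.3%) and 3 lower (15.8%). RPS6 was higher by 0.18 and RPS27A was not called.

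**Figure D3:**
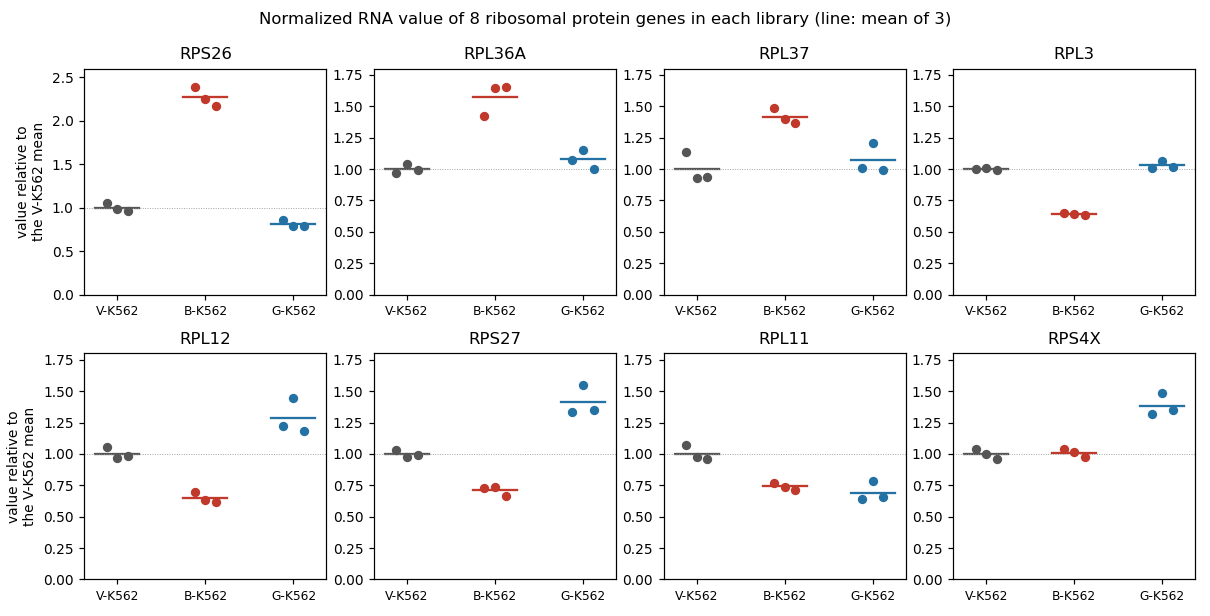
Normalized RNA value of 8 named genes in each library, divided by the mean of the 3 V-K562 libraries of the same table (points are libraries, lines are means). RPS26, RPL36A and RPL37 stand above 1 in B-K562 and RPL3, RPL12, RPS27 and RPL11 below it, while in G-K562 RPL12, RPS27 and RPS4X stand above 1 and RPS26 and RPL11 below.

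The lines with wtBASP1 and BASP1-G2A were then compared with each other in a fit of all 9 libraries. For 59 of the 76 ribosomal protein genes the mRNA was higher in the line with the mutant, where 38.1% of the 15521 genes tested were higher, and lower for 4, where 40.5% were. The median log2 difference was 0.37, against -0.02 over all genes. No called rise reached 2-fold (17.4% of all genes) and 1 called fall did (12.5%). The largest differences were those of RPS27 (0.99 ± 0.06), RPL12 (0.98 ± 0.07) and RPL26 (0.85 ± 0.06), followed by RPL31 (0.73) and RPS18 (0.72). The 4 genes lower in G-K562 were RPS26 (-1.48 ± 0.06, limma adjusted p = 1.5e-11), RPL36A (-0.54 ± 0.08), RPL37 (-0.41 ± 0.09) and RPL6 (-0.19 ± 0.06). The call of RPL6 was lost with equal totals (-0.14, limma adjusted p = 0.06). Without G-K562 replicate 2 the counts were 56 higher and 6 lower with a median of 0.32.

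Since both comparisons with V-K562 use the same control libraries, the calls are given side by side. Of the 65 genes lower in B-K562, 19 were higher in G-K562, 10 were lower in both lines, and 36 were not called in G-K562. Among all genes tested, 33.5% were higher and 33.3% lower in G-K562. For 7 of the 10 genes lower in both lines, RPL11, RPL17, RPL21, RPL22, RPS3A, RPS19 and RPS21, B-K562 and G-K562 were not called different from each other, with differences between -0.10 and 0.07. A missed call does not show that they were alike. RPS26 was the 1 gene higher in B-K562 and lower in G-K562. BASP1 itself had more mRNA in the G2A line than in the wild-type line (log2 difference 0.56 ± 0.14, limma adjusted p = 0.0019), so the lines differed in the amount of BASP1 mRNA as well as in its lipidation, and their parts cannot be told apart.

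The rest of the ribosome pathway did not move as 1 block in B-K562. Of 16 translation factors and other genes known for a TOP tract, 13 were lower (81.2%, against 37.2% of all genes) and 2 higher (12.5%, against 38.6%) in B-K562, with a median of -0.46. EEF2, which translocates the ribosome, fell by 0.71 and EEF1A1, which delivers tRNA, fell by 0.61. NAP1L1, a histone chaperone, fell by 0.76, whereas NPM1, a nucleolar assembly chaperone, was higher (0.36 ± 0.05). The elongation factors did not all fall, since EEF1D, a subunit of the exchange factor of EEF1A1, was higher (0.17 ± 0.04) and EEF1B2, another subunit, was not called (-0.11 ± 0.05). In G-K562, 6 of the 16 were higher (37.5%, near the 33.5% of all genes) and 1 lower (6.25%, against 33.3%), with TPT1 at 1.07 and NAP1L1 at 0.72, and against B-K562 15 were higher. Genes that escort ribosomal proteins or act in the late assembly of the subunits went the other way. Of 24 tested, 22 were higher in B-K562 (91.7%, against 38.6% of all genes) and 1 lower, with a median of 0.72. GRWD1, the chaperone of RPL3, rose by 1.78 while RPL3 itself was the member that fell most. TSR2, the escort of RPS26, rose by 0.45, and PNO1 and MRTO4, late assembly factors, each rose by 1.64. NMD3, the export adaptor of the 60S subunit, was the 1 gene lower (-0.24). In G-K562, 13 of these 24 were lower (54.2%, against 33.3% of all genes) and 3 higher, and all 24 were lower in G-K562 than in B-K562. The mRNAs for proteins of the mitochondrial ribosome, a separate particle encoded by other genes, were also mostly higher in B-K562. Of 80 genes chosen by symbol, 72 were higher (90%, against 38.6% of all genes) and 3 lower, with a median of 0.56. These 80 include the pseudogenes MRPL45P2 (0.45) and MRPS31P5 (-0.65). In G-K562, 12 of the 80 were higher (15%, against 33.5% of all genes) and 34 lower (42.5%, against 33.3%).

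**Figure D4:**
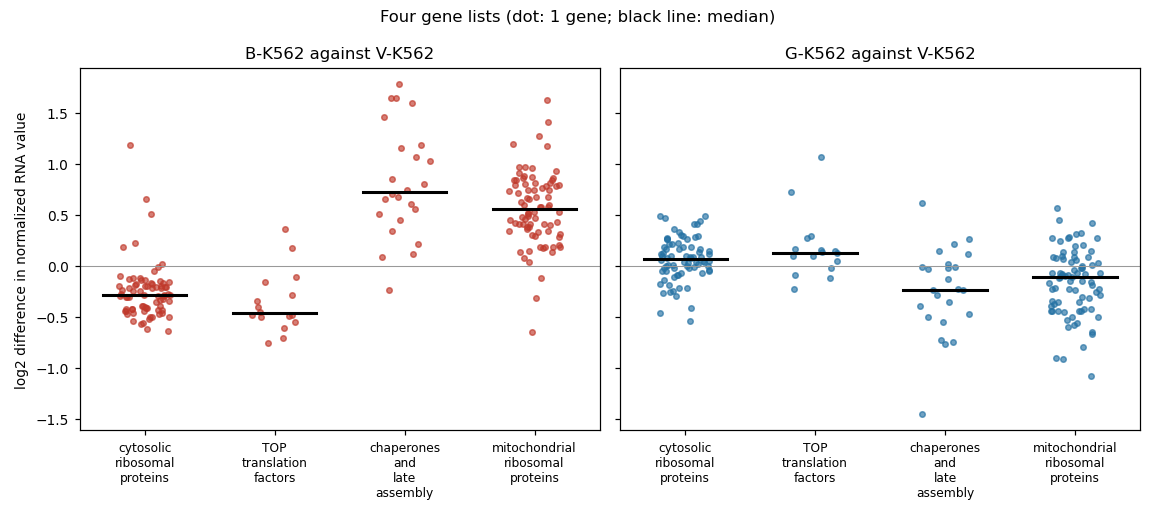
Log2 difference from V-K562 of each gene in 4 lists, in B-K562 (left) and G-K562 (right); each dot is a gene and the black line is the median. In B-K562 the medians were -0.29 for cytosolic ribosomal proteins, -0.46 for TOP translation factors, 0.72 for chaperones and late assembly factors and 0.56 for mitochondrial ribosomal proteins. The mitochondrial list includes the pseudogenes MRPL45P2 and MRPS31P5.

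Of 9 ribosomal proteins and paralogs tested that the symbol pattern leaves out, 4 were higher (44.4%) and 3 lower (33.3%) in B-K562, near the 38.6% and 37.2% of all genes. RPSA, a 40S protein, was lower (-0.17), while FAU, which encodes a ribosomal protein fused to a ubiquitin-like protein, was not called (-0.08). Among paralogs, RPL26L1 rose by 0.97 where RPL26 fell by 0.44, and RPL39L fell by 0.92 where RPL39 fell by 0.21. Of 17 regulators of these genes tested, 12 were higher (70.6%, against 38.6% of all genes) and 3 lower in B-K562. MTOR rose by 0.86, its partner RPTOR by 0.92 and LARP1 by 0.75. The 3 lower were TBPL1 (-0.33), EIF4EBP1 (-0.23) and GABPB1 (-0.19). In G-K562, 2 of the 17 were higher (11.8%, against 33.5% of all genes) and 4 lower (23.5%, against 33.3%). MYC, an activator of ribosome genes, was not called in B-K562 (0.06 ± 0.06) and was lower in G-K562, with 5447, 6231 and 6227 in V-K562 and 2145, 2161 and 2078 in G-K562 (-1.48 ± 0.06). YY1, a factor that binds many of these promoters, was higher in both lines (0.28 in B-K562 and 0.64 in G-K562).

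ATAC-seq gave a second readout at the starts of the same genes. For each gene the merged peak region within 1000 bases of its start with the highest mean was used, and all 76 genes had one. The value is the summit height, the number of tags at the peak's highest point after every library had been sampled to the same number of tags. The starts were open in every line: the median summit over the 76 genes ranged from 116.5 to 120.0 over the V-K562 libraries, from 152.5 to 172.5 over those of B-K562, and from 183.0 to 205.0 over those of G-K562, while the median over all peak regions was 41.0 to 47.0. Before the test, summits were scaled between libraries by a trimmed mean, since summits of shared peaks were taller in the B-K562 and G-K562 libraries, and this choice of scaling decided how many genes were called.

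Accessibility at ribosomal protein genes did not fall with their mRNA. In B-K562, 18 of the 76 start regions were higher than in V-K562 (limma, adjusted p at most 0.05), where 7.89% of the 52204 regions tested were higher, and none was lower, where 15.4% were. No start region had a called change of 2-fold, where 1.3% of all regions had such a rise and 5.3% such a fall. At an unadjusted limma p under 0.05, 32 were higher and 1 lower. The median log2 difference was 0.20, against -0.06 over all regions. Among regions with a peak in every library, 19 members were higher (25% of the 76), against 13.9% of such regions, with medians of 0.20 and 0.02. The starts of other genes, or other regions with summits as tall, were not compared as a set. Whether the excess is particular to these genes was therefore not tested. With no scaling beyond equal tags 38 were higher (50%, against 15.8% of all regions), and with quantile normalization 5 were (6.58%, below the 8.23% of all regions), so the excess of higher calls was not present under quantile normalization. The median stayed above the median of all regions in each of these (0.35 against 0.06, and 0.13 against 0.02). The count fell whichever library was left out, as did the share of all regions called. It was 4 without B-K562 replicate 1 (5.26%, near the 4.52% of all regions) and 5 without its replicate 2 or 3 (6.58%, against 3.61% and 3.8%). Without V-K562 replicates 1, 2 and 3 it was 10, 8 and 11 of the 76, against 5.74%, 5.7% and 5.2% of all regions, and the median stayed between 0.18 and 0.24.

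RPL37 had the largest rise in accessibility in B-K562. Its summit was 214, 250 and 237 tags in V-K562, 473, 498 and 490 in B-K562, and 438, 328 and 389 in G-K562 (scaled log2 difference in B-K562 0.91 ± 0.08, limma adjusted p = 0.0028). Its RNA was also higher in B-K562, and it was the 1 gene with both rises called. RPS12 followed, with 112, 120 and 91 tags in V-K562 and 190, 197 and 188 in B-K562 (0.68), and RPL13 with 91, 122 and 86 in V-K562 and 172, 179 and 162 in B-K562 (0.64). The RNA of RPS12 and RPL13 was lower. The call at RPL13 was lost without any 1 of 5 of the libraries, V-K562 replicate 2 being the exception (limma adjusted p of 0.051 to 0.067). Of the 18 genes with a higher start region, 13 were lower in RNA, 1 was higher and 4 were not called, while of all 76 genes 65 were lower in RNA (85.5%). RPS26, with the largest rise in RNA, had 162, 174 and 165 tags in V-K562 and 214, 204 and 191 in B-K562 and was not called (0.13, limma adjusted p = 0.22).

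In G-K562, 35 start regions were higher than in V-K562, where 14.7% of the 54213 regions tested were, and 1 was lower, where 23.7% were. The median log2 difference was 0.32, against -0.08 over all regions. Among regions with a peak in every library, 40 members were higher (52.6% of the 76), against 23.2% of such regions, with medians of 0.32 and 0.02. Here too the starts of other genes were not compared as a set. No called change reached 2-fold, where 2.28% of all regions had such a rise and 10.8% such a fall, while 47 members were higher and 1 lower at an unadjusted limma p under 0.05. Equal tags alone gave 65 higher (85.5%, against 31.1% of all regions), and quantile normalization 18 (23.7%, nearer to the 18.7% of all regions). Leaving out any 1 library gave 20 to 28, with the fewest without G-K562 replicate 3 (20, or 26.3%, against 9.62% of all regions) and V-K562 replicate 2 (23, or 30.3%, against 12.2%). RPL10 had the largest rise, with 106, 75 and 81 tags in V-K562 and 209, 192 and 205 in G-K562 (0.87). RPL34 rose from 117, 126 and 119 to 270, 254 and 276 tags (0.79), and RPS28 from 95, 76 and 95 to 175, 167 and 228 (0.74). RPL10 was also higher in RNA, whereas the RNA of RPL34 and RPS28 was not called. The lower region was that of RPLP1 (-0.26, limma adjusted p = 0.049), with 138, 127 and 135 tags in V-K562 and 139, 132 and 154 in G-K562. Its unscaled summits were not lower, without the scaling the difference was 0.08, and the call was kept without V-K562 replicate 2 but lost without any other library. In the region used for RPL19, V-K562 replicate 3 and G-K562 replicates 2 and 3 had no peak, and their values were set to the floor of 17 tags. Of the 35 genes with a higher start region, 10 were higher in RNA, 2 lower (RPS21 and RPS26) and 23 not called. Of all 76 genes, 21 were higher in RNA (27.6%) and 11 lower (14.5%).

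Between G-K562 and B-K562, 8 start regions were higher, where 11.2% of the 60181 regions tested were, and 2 lower, where 14.0% were, so the shares were near or below the background. None changed by 2-fold in a called region, where 3.42% of all regions had such a rise and 7.25% such a fall, and at an unadjusted limma p under 0.05 there were 13 higher and 6 lower members. RPL34 (0.46), RPL27 (0.45) and RPL18 (0.41) were the largest rises, and RPL37 (-0.55) and RPS3A (-0.46) were lower. Without B-K562 replicate 3 there were 5 higher, and without G-K562 replicate 3 there were 3. The call at RPL18 was lost without G-K562 replicate 1 or 3, and that at RPS3A without either of these or B-K562 replicate 2. Across the 76 genes the differences in accessibility and in RNA had a Spearman correlation of 0.25 in B-K562 and of 0.04 in G-K562. In B-K562, 67 of the 76 genes lay below 0 in RNA and above 0 in accessibility, and in G-K562 23 did. Taken singly, 70 genes lay below 0 in RNA and 72 above 0 in accessibility in B-K562, and 25 and 66 in G-K562. In B-K562 these single counts alone place most genes in both, so the 67 do not show a link between the assays. Each correlation describes genes that share libraries.

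**Figure D5:**
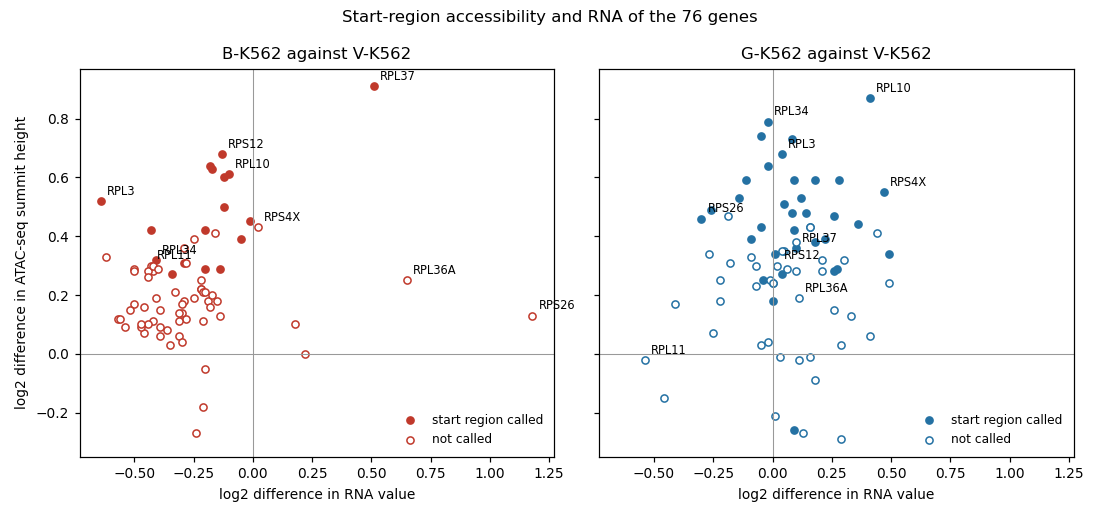
Log2 difference from V-K562 in ATAC-seq summit height at the gene start against that in RNA for the 76 genes, in B-K562 (left) and G-K562 (right), with filled points where the start region was called. In B-K562 67 genes lie in the upper left, with RPL37 at 0.91 in accessibility and 0.51 in RNA.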

How the data were processed

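Both assays were performed on 3 cultures of each of the 3 lines. RNA reads were aligned by the authors with STAR (GRCh38), and after removal of duplicates the uniquely aligned ones were assigned to RefSeq genes using Subread. What the authors deposited is a normalized signal, the counts divided by DESeq2 size factors and rounded, in 1 table for each comparison with V-K562. The strand setting of the counting is not given in the sources used here. The authors' means, fold changes and p-values in these tables were not used. For ATAC-seq, the deposited signal is the tag pileup at the summit, and its mean, of peaks called in each library with MACS2 after sampling all libraries to equal tags.

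The values are not raw counts, so genes with at least 10 in at least 3 libraries of a fit were tested with limma 3.58.1 (R 4.3.3), with a variance trend, on log2(value + 1). The p-values were adjusted by the Benjamini-Hochberg method over all genes tested, and genes were called at an adjusted p of at most 0.05. Log2 differences are on this scale. For G-K562 against B-K562, B-K562 was brought to the other table's scale by a factor of 1.017, the mean ratio between the V-K562 columns of both tables. Peak intervals were merged to 85549 regions, scaled by a trimmed mean of the regions that had a peak in every library of the fit, set to at least 17 tags (the 5th percentile) and tested likewise where at least 3 libraries had a peak. A count of tags or reads carries counting error besides the spread of cultures, 4.3% for the lowest member value of 544. Fits were tested on simulated data. Tables were handled in Python 3.11.15 with pandas 2.3.3.

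The members and gene lists were chosen with earlier results of these data known. Some genes of the member, pathway and marker lists are not reported here by name, and the marker sums cover the named genes only. Genes named are the 5 largest rises and falls among called members in each comparison, all those with 2-fold changes, the 3 highest and lowest per kb, examples by role, and the 3 largest called start regions in each direction. Libraries were grouped by their titles. Alternatives covered filters, pseudocounts, scaling, the floor, the window around the start, the replicate number as a block, and each library left out.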

Additional observations from a re-analysis of the deposited data

Results flagged for a closer look

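For 20 members the calls against V-K562 had opposite directions in B-K562 and G-K562, and the difference between these lines was itself called in the limma fit of all 9 libraries (adjusted p at most 0.05). The latter call adds little, since opposite calls already set the lines apart. Among all genes tested, 37.2% were lower in B-K562 and 33.5% higher in G-K562. The share of all genes with opposite calls was not counted, so the 20 are given as a description. The log2 difference, G-K562 minus B-K562, was 0.99 for RPS27, 0.98 for RPL12, 0.85 for RPL26 and 0.73 for RPL31. It was 0.63 for RPL36 and RPS15A, 0.62 for RPL13, 0.61 for RPL30 and RPS25, and 0.60 for RPL15. It was 0.59 for RPL4, 0.58 for RPS6 and RPS16, 0.50 for RPL23, 0.49 for RPS14, 0.48 for RPL28, 0.47 for RPL39, 0.42 for RPL10A and 0.38 for RPL38. In these 19 genes B-K562 was lower than V-K562 and G-K562 higher. RPS26, with -1.48, was the 1 gene with the opposite order. Since both calls use the same V-K562 libraries, the opposite signs are not independent of each other.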

How the results depend on the processing

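Of 294 alternative values of the member counts and medians, 236 stayed within the set limits and 58 moved. Of 654 alternative values of named genes and start regions, 624 kept their call and direction, 29 lost the call, and 1 reversed: RPLP1 accessibility in G-K562 against V-K562, 0.08 with equal tags only. Where no cause is given, the cause was not tested.

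Asking for a called change of at least 2-fold left 1 gene higher and 0 lower in RNA of B-K562 against V-K562, 0 and 0 in G-K562 against V-K562, 0 higher and 1 lower in G-K562 against B-K562, and 0 start regions in each ATAC-seq comparison, since few differences are that large. Centring within length bins gave 41 higher and 5 lower with a median of 0.16 in RNA of G-K562 against V-K562, and a median of 0.50 in G-K562 against B-K562. At start regions in B-K562 against V-K562, 9 were higher with a peak in any library, 38 with equal tags only (median 0.35), 5 with quantile normalization (median 0.13) and 11 with the replicate block. In G-K562 against V-K562, 65 were higher with equal tags only (median 0.67) and 18 with quantile normalization (median 0.16), the mean pileup gave a median of 0.29, and 0 were lower with a peak in every library, a peak in any library, equal tags only, the lowest floor, the mean pileup or the block. In G-K562 against B-K562, 30 were higher and 1 lower with equal tags only (median 0.31), 5 higher with quantile normalization (median 0.03), 4 lower with a peak in every library, and the median was 0.02 with the mean pileup. Equal tags alone moved the median of all regions to 0.06, 0.19 and 0.12 in these 3 comparisons.

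Leaving out 1 library gave, for RNA, 4 to 5 higher, 54 to 66 lower and medians of -0.32 to -0.25 in B-K562 against V-K562, 15 to 23, 7 to 14 and 0.02 to 0.09 in G-K562 against V-K562, and 52 to 60, 4 to 6 and 0.32 to 0.40 in G-K562 against B-K562. For start regions it gave 4 to 11 higher, 0 lower and 0.18 to 0.24, then 20 to 28, 0 to 1 and 0.30 to 0.33, then 3 to 8, 1 to 2 and 0.06 to 0.13; the fewest were called without B-K562 replicate 1 (4), G-K562 replicate 3 (20) and G-K562 replicate 3 (3).

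Whether same-numbered libraries were prepared together is not given in the sources used here. Their deviations correlated at -0.08 to 0.136 in RNA and 0.007 to 0.122 in ATAC-seq. Pairs of unlike number ranged from -0.16 to 0.208 in RNA and from -0.084 to 0.047 in ATAC-seq. In ATAC-seq the replicate 1 libraries correlated with each other at 0.088 to 0.122. Each ATAC-seq pair of a replicate 1 with another number was negative. In neither assay did every library correlate best with its own number. A shared preparation was not tested. With the replicate block, 5 members were higher and 67 lower in RNA of B-K562 against V-K562, 18 and 11 in G-K562 against V-K562, and 58 and 4 in G-K562 against B-K562. At start regions the block gave 11 and 0, 30 and 0, and 8 and 3. Depth cannot be read from the normalized totals, and summit heights near the floor of 17 tags limit what can be seen at weak regions. The region used for RPL19 is such a case, and it ends at 39200193, before the gene start at 39200283.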
